A study of Mus musculus with 9 samples.

Results

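The Zfhx and Zeb genes encode large transcription factors that carry both zinc fingers and homeodomains. Zfhx3, Zfhx4, Zfhx2, Zeb1 and Zeb2 were measured in sorted midbrain dopamine (DA) neurons of mouse embryos with 0, 1 or 2 floxed alleles of Dot1l, the histone H3 lysine 79 methyltransferase. The family was picked on the measured values, because Zfhx3 was lower in both floxed genotypes than in Dot1l(+/+). Its 5 genes were found by symbol among the 47729 genes with counts, and all 5 passed the low-count filter that left 17988 genes for testing. Because of this choice, the values of the family against Dot1l(+/+) are given as a description without a test.

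Zfhx factors (Zfhx3 is also known as ATBF1) are among the largest transcription factors, with many zinc fingers and several homeodomains, and act in neuronal differentiation. Zeb1 and Zeb2 bind E-box sequences through clusters of zinc fingers at both ends of the protein, recruit corepressors such as CtBP, and are best known for silencing epithelial genes during the epithelial-mesenchymal transition. In developing brain, Zeb1 is associated with progenitors and the onset of migration, and Zeb2, which binds activated Smads, with neuron fate, migration and myelination.

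All embryos were of the C57/Bl6 background, were taken at E15.75 and carried Pitx3-Cre/+ with a Rosa-lox-stop-lox-YFP reporter, the controls included. Cre was thus driven from the locus of Pitx3, a gene of postmitotic DA neurons, on 1 chromosome in every group. YFP-positive cells were sorted, and each library came from a pool of embryos. Per the study's methods the genotypes were matched within litters, but the labels do not say which libraries belong together. Dot1l(+/+), called controls here, and Dot1l(fl/+) had 3 libraries each. Dot1l(fl/fl) had 2 libraries, and the sample labelled Dot1l(fl/fl) 3 was not analysed here. Totals lay between 13616922 and 43674673 counts, with both Dot1l(fl/fl) libraries the shallowest. Values are given as CPM, counts brought to a common library total after TMM scaling, and 3 counts corresponded to 0.0687 to 0.2203 CPM, a limit that covers counting error only. Since the pools are the only replicates, p-values measure the spread between pools.

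Before the family, the labels were checked. Dot1l itself was at 105, 84.6 and 94.6 CPM in controls 1 to 3, and lower in each Dot1l(fl/+) library (75.5, 65.6 and 76.2 CPM). The first Dot1l(fl/fl) library had 64.9 CPM, but the library labelled Dot1l(fl/fl) 2 was within the control range with 99.1 CPM. The floxed part is a single exon, so that the count over the whole gene is an indirect check. Fold changes of the Zfhx and Zeb genes in Dot1l(fl/fl) are given with and without this library where they turn on it. Fold changes of other genes are given with all libraries only. The 10 DA markers, led by Th, Ddc and Aldh1a1, summed to 4674 to 6703 CPM per library, whereas the summed markers of serotonergic neurons were at most 5.6 CPM, of oligodendrocyte precursors at most 14.1 CPM, of neural crest and Schwann cells at most 15.5 CPM with Foxd3 at 0, of endothelium and pericytes at most 18.9 CPM and of blood at most 33.4 CPM. Radial glia and progenitor markers (222.6 to 263.7 CPM) and GABAergic markers (196.7 to 265.7 CPM) were present in all libraries. So were glutamatergic markers (191.0 to 241.2 CPM) and microglia markers (92.0 to 133.6 CPM), each sum below that of the DA markers. Few genes made up most of the radial glia, GABAergic and glutamatergic sums. These were Vim (156 to 175 CPM), Gad2 (80.5 to 108 CPM) with Slc32a1 (106 to 156 CPM), and Slc17a6 (164 to 211 CPM), in that order. For scale, a mean of 108 CPM, that of Zfhx2 over the 8 libraries, lay above 86.8% of tested genes. Dot1l(fl/fl) 2, within the control range for Dot1l, had a DA marker sum of 4674 CPM. That was below the 5652 CPM of Dot1l(fl/fl) 1 and the 5831 to 6703 CPM of the controls. In such bulk samples, fewer cells of a type and less RNA per cell cannot be told apart.

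All 5 genes were transcribed well above the counting limit, with between 766 and 9689 counts in a library. Because the genes differ in length, their levels were compared per kilobase of exon. On the scale of CPM per kilobase, the mean over the 8 libraries was 8.22 for Zfhx3 (range 5.44 to 10.7), 6.52 for Zeb1 (5.37 to 7.24), 5.97 for Zfhx2 (4.96 to 7.63), 5.46 for Zfhx4 (3.98 to 6.69) and 2.88 for Zeb2 (2.32 to 3.74). Neighbours in this order overlapped in range except Zfhx4 and Zeb2, and the order of neighbours held in 7 of 8 libraries for Zfhx3 over Zeb1, in 6 of 8 for Zeb1 over Zfhx2, in 6 of 8 for Zfhx2 over Zfhx4, and in all 8 for Zfhx4 over Zeb2. Zfhx3 lay above 65.7% of the tested genes with a known length, and Zeb2 above 45.3%. The order depended on the length used. With the longest transcript in place of all exons, Zeb1 led with a mean of 11.54 CPM per kilobase, ahead of Zfhx2 with 10.4 and Zfhx3 with 10.1, and Zeb2 (6.30) stood beside Zfhx4 (6.20).

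**Figure D1:**
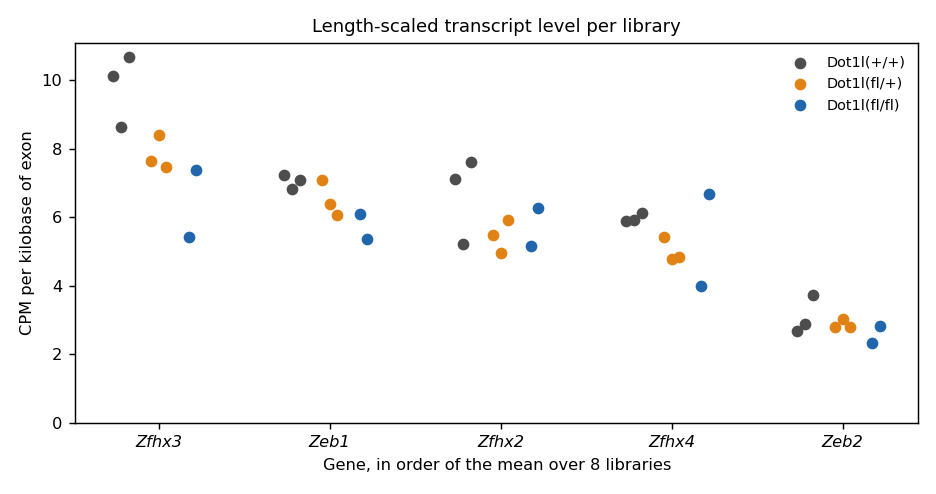
Transcript level of each gene per library, in CPM per kilobase of all annotated exons (vertical axis), with genes ordered by their mean and points coloured by genotype. The points of Zeb2 lie between 2.32 and 3.74 and below every point of the other 4 genes, whose ranges overlap each other.

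Zfhx3, which restrains cell proliferation and promotes neuronal differentiation and is known in adult brain for its part in the circadian clock of the hypothalamus, gave the clearest separation of the genotypes. The gene (ENSMUSG00000038872) spans chromosome 8 from 107942644 to 108961630 on the plus strand of GRCm38, with 20976 bp of exon in all. Controls 1 to 3 had 212, 181 and 224 CPM (206 ± 22.1, SD, n = 3). Dot1l(fl/+) 1 to 3 had 160, 176 and 157 CPM (164 ± 10.2, SD, n = 3). Dot1l(fl/fl) 1 and 2, the latter by its label, had 114 and 155 CPM (134 ± 28.9, SD, n = 2). Every Dot1l(fl/fl) library was thus below every Dot1l(fl/+) library, and each of these below every Dot1l(+/+) library, although Dot1l(fl/fl) 2 and Dot1l(fl/+) 3 nearly touched. The means of Dot1l(fl/+) and Dot1l(fl/fl) were 79.8% and 65.3% of the Dot1l(+/+) mean. Of all genes tested, 0.439% (79 of 17988) showed this complete descending order, a share that gives the background and no test, since Zfhx3 was chosen for being lower.

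The log2 fold change of Zfhx3, the edgeR estimate with its standard error (SE), was -0.62 ± 0.13 in Dot1l(fl/fl) and -0.32 ± 0.11 in Dot1l(fl/+), each against the controls. Both comparisons share the same Dot1l(+/+) libraries. The library labelled Dot1l(fl/fl) 1 carried more of the difference than Dot1l(fl/fl) 2. Whether this goes with the Dot1l level, within the control range in Dot1l(fl/fl) 2, was not tested. The log2 fold change of Zfhx3 in Dot1l(fl/fl) was -0.85 without Dot1l(fl/fl) 2 and -0.41 without Dot1l(fl/fl) 1. With a correction of each library for exon length and GC content (an offset in the fit) it was -0.43 in Dot1l(fl/fl) and -0.21 in Dot1l(fl/+). Of all tested genes, 9.99% had a lower log2 fold change than Zfhx3 in Dot1l(fl/fl) and 16.0% in Dot1l(fl/+), counting weakly expressed genes with wide errors. Gm38042, Gm38318, Gm20686 and Mir3108, the counted genes that overlap the locus, share no exon bases with Zfhx3 and had at most 10 counts in any library.

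Zfhx4, the closest relative of Zfhx3 and linked to neuronal differentiation, did not follow that pattern. The gene (ENSMUSG00000025255) lies on chromosome 3 from 5218526 to 5415857 on the plus strand, with 15737 bp of exon. Controls 1 to 3 had 93.0, 93.1 and 96.5 CPM (94.2 ± 2.0, SD, n = 3), and Dot1l(fl/+) 1 to 3 had 85.5, 75.2 and 76.4 CPM (79.0 ± 5.7, SD, n = 3). Every Dot1l(fl/+) library was below every Dot1l(+/+) library. The 2 libraries labelled Dot1l(fl/fl) then lay on opposite sides of the controls, with 62.7 CPM in the first, the lowest of all, and 105 CPM in the second, the highest of all (84.0 ± 30.2, SD, n = 2). The log2 fold changes were -0.17 ± 0.15 (SE) in Dot1l(fl/fl) and -0.25 ± 0.14 in Dot1l(fl/+), and the former turned from -0.59 without Dot1l(fl/fl) 2 to 0.16 without Dot1l(fl/fl) 1. The antisense gene 2700069I18Rik overlaps the start of the locus without shared exon bases and had 62 to 231 counts.

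Zfhx2, a smaller relative expressed in differentiating neurons and known from pain sensation, varied most among controls. The gene (ENSMUSG00000040721) lies on chromosome 14 from 55060262 to 55092324 on the minus strand, with 18166 bp of exon. Controls 1 to 3 had 129, 94.7 and 139 CPM (121 ± 23.1, SD, n = 3), Dot1l(fl/+) 1 to 3 had 99.5, 90.0 and 107 CPM (99.0 ± 8.7, SD, n = 3), and Dot1l(fl/fl) 1 and 2 had 93.9 and 114 CPM (104 ± 14.1, SD, n = 2). All 3 groups overlapped, since Dot1l(+/+) 2 was as low as the floxed libraries. The log2 fold changes were -0.22 ± 0.14 (SE) in Dot1l(fl/fl) and -0.29 ± 0.13 in Dot1l(fl/+), and the length and GC offset took them to 0.01 and -0.14. The value in Dot1l(fl/fl) was -0.37 without Dot1l(fl/fl) 2 and -0.09 without Dot1l(fl/fl) 1. Without Dot1l(+/+) 2 the values were -0.37 and -0.44, and without Dot1l(+/+) 3 they were -0.11 and -0.18. Zfhx2os, an antisense transcript that shares 3255 exon bases with Zfhx2, had 104, 19 and 134 counts in controls 1 to 3, 11 to 40 counts in Dot1l(fl/+) and 26 to 51 counts in Dot1l(fl/fl). Its count, not scaled for depth, was also lowest of the controls in Dot1l(+/+) 2. The strand setting of the counting was not given in the sources used here, so that reads from Zfhx2 and Zfhx2os may not be fully separated.

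**Figure D2:**
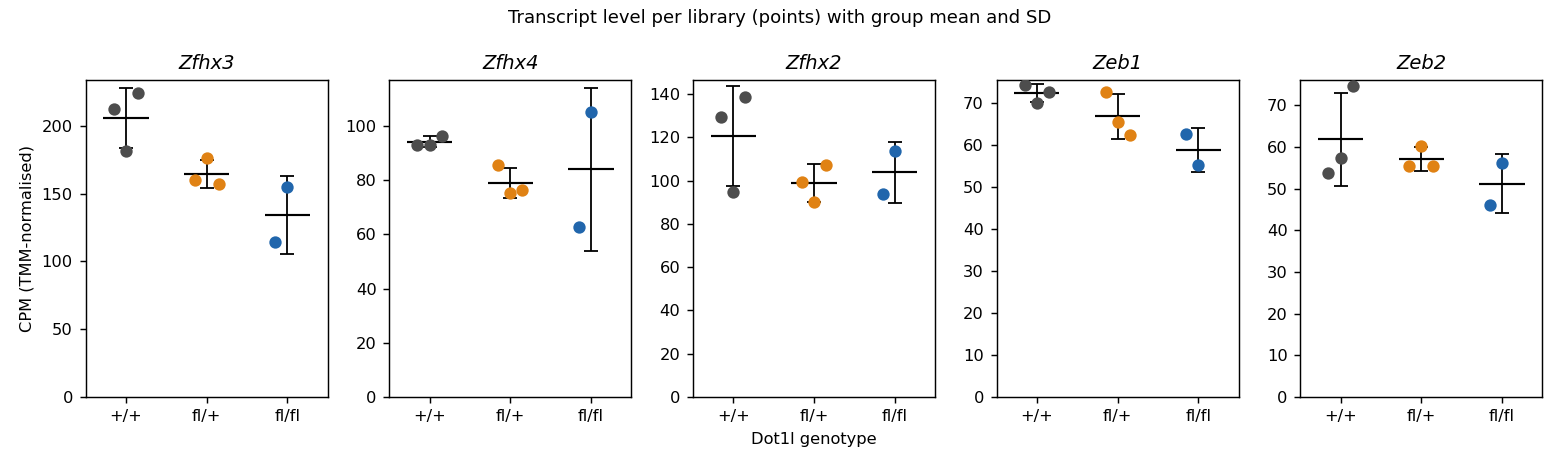
CPM of each gene (vertical axis, from 0) in every library, by number of floxed Dot1l alleles, with black bars for the group mean and SD. Zfhx3 descends from 181 to 224 CPM in Dot1l(+/+) to 114 and 155 CPM in Dot1l(fl/fl) without overlap, while the Dot1l(fl/fl) points of Zfhx4, 62.7 and 105 CPM, lie on both sides of the controls.

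Zeb1, the E-box-binding repressor that holds neural progenitors in an immature state and represses E-cadherin and polarity genes, varied least within genotypes when the 3 genotypes were pooled (SD of log2 CPM 0.096). The gene (ENSMUSG00000024238) lies on chromosome 18 from 5591860 to 5775467 on the plus strand, with 10266 bp of exon. Controls 1 to 3 had 74.3, 70.1 and 72.7 CPM (72.4 ± 2.1, SD, n = 3), Dot1l(fl/+) 1 to 3 had 72.7, 65.6 and 62.3 CPM (66.9 ± 5.4, SD, n = 3), and Dot1l(fl/fl) 1 and 2 had 62.5 and 55.2 CPM (58.8 ± 5.2, SD, n = 2). Both Dot1l(fl/fl) libraries were below every Dot1l(+/+) library, while the Dot1l(fl/+) libraries reached from one group to the other. The lower of the 2 Dot1l(fl/fl) libraries was here the second, in contrast to the other 4 genes. The log2 fold changes were -0.30 ± 0.13 (SE) in Dot1l(fl/fl) and -0.11 ± 0.11 in Dot1l(fl/+). The former was -0.21 without Dot1l(fl/fl) 2, -0.39 without Dot1l(fl/fl) 1, and -0.22 with the length and GC offset. Gm10125, which runs antisense across the Zeb1 start and shares 198 exon bases with it, had 39 to 165 counts.

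Zeb2, the Smad-interacting homologue whose loss in humans causes Mowat-Wilson syndrome, had the lowest level per kilobase and no separation of the genotypes. The gene (ENSMUSG00000026872) lies on chromosome 2 from 44983632 to 45117395 on the minus strand, with 19942 bp of exon. Controls 1 to 3 had 53.7, 57.4 and 74.7 CPM (61.9 ± 11.2, SD, n = 3), Dot1l(fl/+) 1 to 3 had 55.5, 60.4 and 55.5 CPM (57.2 ± 2.8, SD, n = 3), and Dot1l(fl/fl) 1 and 2 had 46.2 and 56.2 CPM (51.2 ± 7.1, SD, n = 2). The control mean was raised by Dot1l(+/+) 3, and the other two controls lay among the floxed libraries. The log2 fold changes were -0.28 ± 0.15 (SE) in Dot1l(fl/fl) and -0.12 ± 0.13 in Dot1l(fl/+), and without Dot1l(+/+) 3 they were -0.12 and 0.04. The length and GC offset took them to -0.13 and -0.01. The value in Dot1l(fl/fl) was -0.43 without Dot1l(fl/fl) 2 and -0.14 without Dot1l(fl/fl) 1. The antisense gene Zeb2os shares 653 exon bases with Zeb2 and had 16 to 93 counts, and the other annotated genes that overlap Zfhx2, Zeb1 or Zeb2 had no counts.

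Taken as a family, all 5 genes had a negative log2 fold change in Dot1l(fl/fl) against Dot1l(+/+), with a median of -0.28, beside 50.4% negative values and a median of -0.003 over the 17988 tested genes. In Dot1l(fl/+) against Dot1l(+/+), again 5 of 5 were negative with a median of -0.25, beside 51.0% and -0.007 over the tested genes. That median was -0.14 with the length and GC offset, and without Dot1l(+/+) 3 the number was 4 of 5, with Zeb2 positive. The libraries did not overlap for 2 of the 5 in Dot1l(fl/fl), Zfhx3 and Zeb1, where 11.6% of tested genes had every Dot1l(fl/fl) library below every control. They did not overlap for 2 of the 5 in Dot1l(fl/+), Zfhx3 and Zfhx4, against 5.97% of tested genes. These counts describe a family chosen in these comparisons. With Dot1l(fl/fl) 2 left out, all 5 values in Dot1l(fl/fl) were negative with a median of -0.43, and with Dot1l(fl/fl) 1 left out the number was 4 of 5, with Zfhx4 positive and a median of -0.14. The median was -0.15 without Dot1l(+/+) 3. With the length and GC offset 4 of 5 were negative, with Zfhx2 at 0.01 and a median of -0.13. No gene of the genome passed an edgeR adjusted p of 0.05 in either comparison (0 of 17988, 0.0% in each), although 1667 and 903 genes had an unadjusted p under 0.05, and DESeq2 called 197 and 0 genes. With the replicate number as a block, edgeR called 6 and 0.

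**Figure D3:**
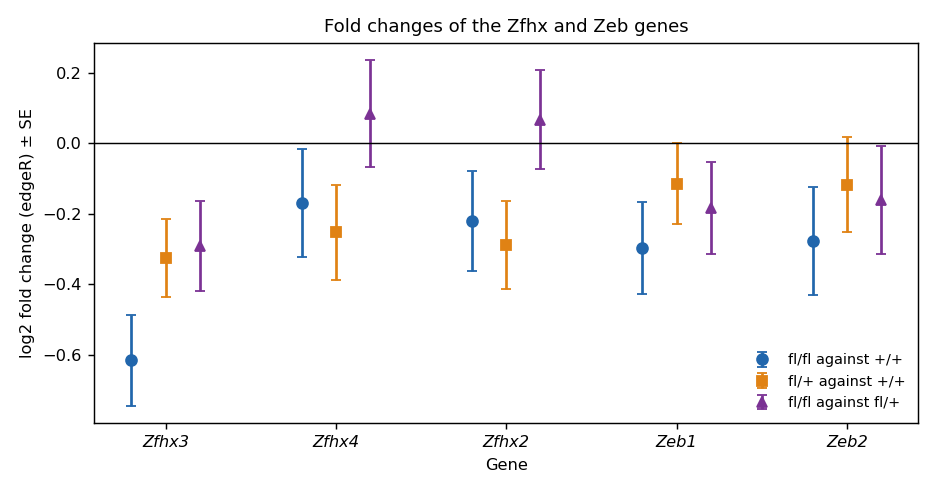
The log2 fold change with its SE (vertical axis) of the 5 genes in the 3 comparisons of genotypes. The values against Dot1l(+/+) are all below 0, from -0.62 for Zfhx3 to -0.11 for Zeb1, whereas Zfhx4 and Zfhx2 lie at 0.08 and 0.07 between the floxed genotypes.

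A choice by lower values is not independent of exon length, since values against Dot1l(+/+) were more often negative among long genes. All 5 members have long exon sequence. Each was among the 1792 tested genes with the longest exons (9318 bp or more, 10% of those with a known length), and Zfhx3 was longer than 99.5% of tested genes, Zeb2 than 99.3%, Zfhx2 than 99.0%, Zfhx4 than 98.1% and Zeb1 than 92.4%. Among these long genes the median log2 fold change was -0.15 in Dot1l(fl/fl) and -0.10 in Dot1l(fl/+) against Dot1l(+/+), and 74.8% and 73.3% of its genes had negative values. Among the 1792 genes with the shortest exons, the median in Dot1l(fl/fl) was 0.14. Read against long genes alone, 3.9% had a lower log2 fold change than Zfhx3 in Dot1l(fl/fl). For the other members the share was 22.3% for Zeb1, 25.4% for Zeb2, 36.4% for Zfhx2 and 46.3% for Zfhx4. In Dot1l(fl/+) it was 10.4% for Zfhx3, 13.4% for Zfhx2, 17.5% for Zfhx4, 45.1% for Zeb2 and 45.5% for Zeb1. Zfhx3 was chosen for being lower in both comparisons, so that its place is a description and no test. The long genes had a median exon length of 11893 bp, below that of every member but Zeb1. These shares are thus not fully matched for length. Among the same long genes, 22.5% had every Dot1l(fl/fl) library and 10.5% every Dot1l(fl/+) library below every control, and 0.33% showed the complete descending order of Zfhx3. The part of exon length in the lower values of the family was not tested beyond the offset.

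**Figure D4:**
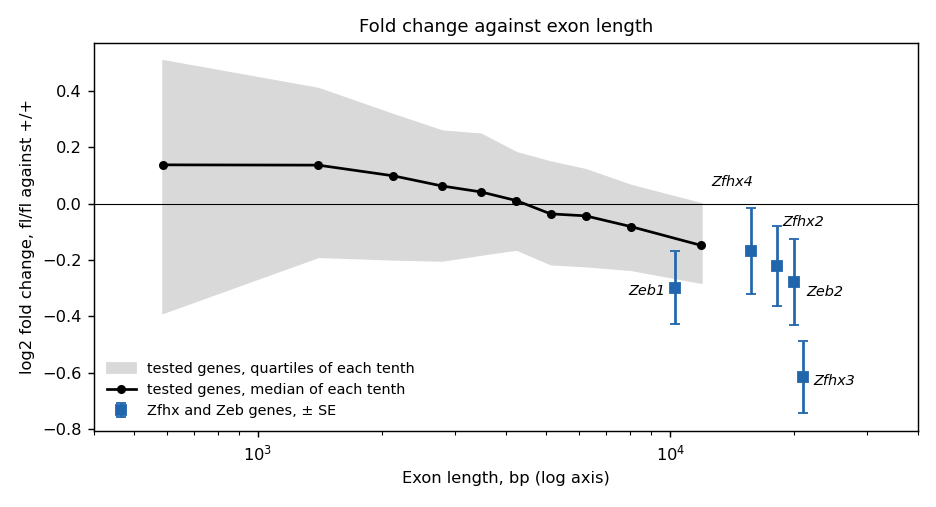
The log2 fold change in Dot1l(fl/fl) against Dot1l(+/+) (vertical axis) by exon length in bp (logarithmic axis), as the median (line) and quartiles (band) of the tested genes in 10 groups of equal size, with the 5 genes and their SE in blue. The median goes from 0.14 among the shortest to -0.15 among the longest genes, and of the 5 members Zfhx3, at -0.62, lies lowest.

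Other values differed in the Dot1l(fl/fl) libraries as well. The summed CPM of 10 genes that respond to tissue dissociation was 1226 and 1237 in Dot1l(fl/fl), above the 919 to 1064 of Dot1l(+/+) and the 873 to 1112 of Dot1l(fl/+), with 6 of the 10 higher than Dot1l(+/+) at an unadjusted p under 0.05, where 4.24% of all tested genes were. This list was chosen with earlier results of these data known. It holds Btg2, whose edgeR adjusted p of 0.0985 was undercut by no tested gene in that comparison. The summed DA markers were 4674 and 5652 CPM in Dot1l(fl/fl) and 5831 to 6703 CPM in Dot1l(+/+). Of the 10, 9 had a negative log2 fold change. At an unadjusted p under 0.05, 6 of 10 were lower, where 5.03% of all tested genes were. Th, Ddc and Aldh1a1, which lead the sum, were among these 6. Slc6a3 (0.13 ± 0.11, SE), Pitx3 (-0.01 ± 0.12), Lmx1b (-0.15 ± 0.11) and Foxa2 (-0.14 ± 0.11) did not pass at that p. Among markers of other cells, GABAergic ones summed to 236.4 and 265.7 CPM in Dot1l(fl/fl), 196.7 to 233.7 CPM in Dot1l(fl/+) and 203.6 to 226.3 CPM in Dot1l(+/+). Their median log2 fold change was -0.02, with 4 of 8 positive, and the 1 higher at that p was Slc32a1, the vesicular GABA transporter gene, at 113, 108 and 110 CPM in the controls and 156 and 129 CPM in Dot1l(fl/fl). Blood markers, with 2 of 5 higher at that p, summed to 33.4 CPM in Dot1l(fl/fl) 2, above the 11.9 to 18.7 CPM of the other 7 libraries. Endothelium and pericyte markers summed to 14.6 and 9.9 CPM in Dot1l(fl/fl) 1 and 2. They summed to 6.6 to 11.8 CPM in Dot1l(+/+) and to 8.0 to 18.9 CPM in Dot1l(fl/+). The 1 of 8 higher at that p was Tek, at 0 CPM in the controls and 1.04 and 0 CPM in Dot1l(fl/fl) 1 and 2. The part of these differences in the values of Zfhx3 and Zeb1 was not tested.

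Setting Dot1l(fl/fl) beside Dot1l(fl/+) asks whether losing the second allele adds to losing the first, and it was not used to choose the family. No gene passed the edgeR adjusted p of 0.05 (0 of 17988, 0.0%), with 723 genes at an unadjusted p under 0.05 and 1 gene called by DESeq2. Zeb1 (log2 fold change -0.18, 95% interval -0.45 to 0.09) and Zeb2 (-0.16, -0.48 to 0.16) were on the negative side, and Zfhx4 (0.08, -0.23 to 0.40) and Zfhx2 (0.07, -0.22 to 0.36) on the positive side, each with an edgeR adjusted p of 0.998. The intervals leave room for differences of either sign in all 4. Zfhx4 was at -0.33 without Dot1l(fl/fl) 2 and at 0.41 without Dot1l(fl/fl) 1, and Zfhx2 at -0.08 and 0.20. In the same order Zeb1 was at -0.10 and -0.28, and Zeb2 at -0.31 and -0.03. Zfhx3 was at -0.29 ± 0.13 (SE), given without a test because the same libraries chose it. It was the sole member with every Dot1l(fl/fl) library below every Dot1l(fl/+) library, as were 9.57% of tested genes, and its value was -0.09 without Dot1l(fl/fl) 1 and -0.53 without Dot1l(fl/fl) 2.

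**Figure D5:**
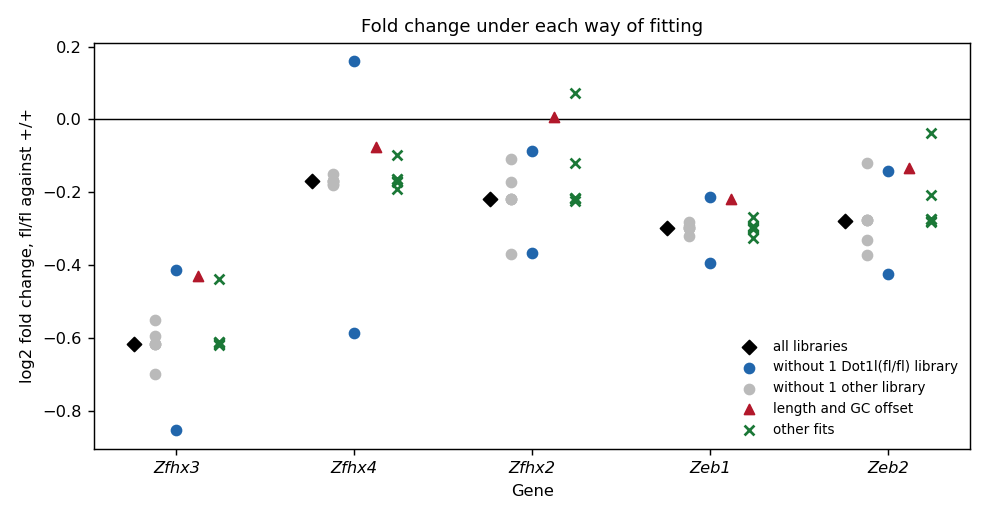
The log2 fold change of each gene in Dot1l(fl/fl) against Dot1l(+/+) (vertical axis) with all libraries, without 1 library at a time, with the length and GC offset, and under the other fits tried. Zfhx3 stays between -0.85 and -0.41 and Zeb1 between -0.39 and -0.21, while Zfhx4 and Zfhx2 cross 0.

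Across the 8 libraries the members varied together to different degrees. Pearson's r of log2 CPM, as a description over 8 libraries that share genotype and depth, was 0.78 for Zfhx3 and Zeb2, 0.67 for Zfhx3 and Zfhx4, and 0.65 for Zfhx3 and Zfhx2. It was as low as 0.12 for Zfhx4 and Zeb1. The genes most like each member were picked among 9953 genes with a mean of at least 10 CPM. The top r of so many genes over 8 libraries is raised by this choice, and shared regulation was not tested. Most like Zfhx3 were Cux2, a homeodomain factor of neuronal differentiation (r = 0.989), Tle1, a Groucho-type corepressor (r = 0.986), and D430041D05Rik (r = 0.985). Cux2 was at 62.3, 56.8 and 64.6 CPM in Dot1l(+/+), 47.5, 54.6 and 48.5 CPM in Dot1l(fl/+) and 38.6 and 49.2 CPM in Dot1l(fl/fl). Zfhx4 was most like Lrp1b, a giant lipoprotein receptor relative (r = 0.995), Cnot6l, a deadenylase (r = 0.976), and Slc38a2, an amino acid transporter (r = 0.963). Zfhx2 was most like the receptor phosphatase Ptprs (r = 0.991), Mllt6 (r = 0.980) and Mapkbp1 (r = 0.973). Zeb1 was most like the small GTPase Arf3 (r = 0.983), Nyap1 (r = 0.974) and the RNA-binding Celf4 (r = 0.960), and Zeb2 was most like the protocadherin Pcdhga7 (r = 0.947), Zbtb22 (r = 0.935) and Zcchc2 (r = 0.921).

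The other genes of the pathway were read from lists, and in none of the lists did a gene pass the adjusted threshold. Of 9 other homeobox genes of the zinc-finger class, all tested, 0 were higher and 1 lower in Dot1l(fl/fl) than in Dot1l(+/+) at an unadjusted p under 0.05, where 4.24% of tested genes were higher and 5.03% lower, with a median log2 fold change of -0.14. That gene was Tshz1, a teashirt factor of neuron development, at 96.2, 94.3 and 106 CPM in Dot1l(+/+) and 81.6 and 73.7 CPM in Dot1l(fl/fl) (-0.35 ± 0.12, SE, edgeR adjusted p = 0.341). In Dot1l(fl/+) none of the 9 passed in either direction, with a median of 0.03, where 2.86% of tested genes were lower and 2.16% higher at that p. Adnp was nearly without counts, at 0.11 to 0.90 CPM, but its locus lies within another annotated gene on the same strand, so that its level is uncertain.

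Genes that Zeb1 and Zeb2 act with were expressed. Of 18 corepressors and cofactors, 0 were higher and 3 lower in Dot1l(fl/fl) at an unadjusted p under 0.05, beside 4.24% and 5.03% of tested genes, and the median log2 fold change was -0.06. They were Chd4, the remodelling ATPase of the NuRD complex (-0.27 ± 0.10, SE, edgeR adjusted p = 0.395), Ep300, a histone acetyltransferase (-0.38 ± 0.15, edgeR adjusted p = 0.398), and Gatad2b, another NuRD subunit (-0.36 ± 0.15, edgeR adjusted p = 0.443). Chd4 was below every control in both Dot1l(fl/fl) libraries. In Dot1l(fl/fl) 2, Ep300 (77.0 CPM) and Gatad2b (97.0 CPM) were within the control ranges of 76.2 to 101 and 86.8 to 116 CPM. In Dot1l(fl/+) 1 of the 18 was lower, beside 2.86% of tested genes: the CtBP gene Ctbp2, with 48.2, 47.5 and 41.2 CPM in Dot1l(+/+) and 34.3, 39.5 and 31.3 CPM in Dot1l(fl/+) (-0.38 ± 0.14, SE, edgeR adjusted p = 0.94), chosen after its values were seen. In Dot1l(fl/fl) Ctbp2 was back at 41.8 and 45.3 CPM. Of 8 Smad genes, the transducers of TGF-beta and BMP signals that Zeb2 binds, 7 were tested and none passed at an unadjusted p under 0.05 in either direction against Dot1l(+/+), with median log2 fold changes of -0.14 in Dot1l(fl/fl) and -0.05 in Dot1l(fl/+).

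The epithelial genes that Zeb factors silence had few or no counts in every library. Of 17, among them E-cadherin (Cdh1), claudins and the hairpins of the miR-200 family, 9 had no count in any of the 8 libraries and 3 were tested. Of these 9, 5 were the hairpins, which are shorter than the fragments such libraries are made of, and the others were Esrp2, Grhl2, Ovol1 and Ovol2. The summed level of all 17 was 2.8 to 6.3 CPM in Dot1l(+/+), 4.3 to 6.5 CPM in Dot1l(fl/+) and 5.9 to 7.7 CPM in Dot1l(fl/fl), most of it Epcam at 2.61 to 5.18 CPM. None of the 3 passed at an unadjusted p under 0.05. Cdh1 was at 0 to 0.35 CPM in Dot1l(+/+) and Dot1l(fl/+), while Dot1l(fl/fl) 1 and 2 had 1.37 and 0.07 CPM.

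Of 6 other transcription factors of the epithelial-mesenchymal transition, 3 were lower and 0 higher in Dot1l(fl/fl) at an unadjusted p under 0.05, beside 5.03% and 4.24% of tested genes, and in Dot1l(fl/+) there were none. The abundant ones were the E-box-binding E proteins, which do not serve that transition alone but are general partners of neuronal bHLH factors. Tcf4 was at 338, 302 and 309 CPM in Dot1l(+/+), 290, 286 and 274 CPM in Dot1l(fl/+) and 246 and 242 CPM in Dot1l(fl/fl), a descending order without overlap like that of Zfhx3. Its log2 fold change in Dot1l(fl/fl) was -0.38 ± 0.10 (SE, edgeR adjusted p = 0.242). Tcf3 was at 74.4, 82.4 and 78.4 CPM in Dot1l(+/+) and 56.6 and 63.5 CPM in Dot1l(fl/fl) (-0.39 ± 0.13, SE, edgeR adjusted p = 0.331). Twist2 was at 0.53 to 0.62 CPM in Dot1l(+/+) and had no count in either Dot1l(fl/fl) library, which allows up to 0.164 and 0.220 CPM there. Snai1 and Snai2, the classical members of the group, were at most 1.02 and 1.65 CPM.

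Of 15 partners and described targets of Zfhx3, 14 were tested, and 2 were higher and 1 lower in Dot1l(fl/fl) at an unadjusted p under 0.05, beside 4.24% and 5.03% of tested genes, and the median log2 fold change was 0.14. Vip, a neuropeptide gene whose expression in the hypothalamic clock depends on Zfhx3, was at 5.33, 5.58 and 7.47 CPM in Dot1l(+/+), 2.45, 5.83 and 6.19 CPM in Dot1l(fl/+) and 2.68 and 2.52 CPM in Dot1l(fl/fl) (-1.24 ± 0.43, SE, edgeR adjusted p = 0.331). The cell cycle inhibitor gene Cdkn1a was at 57.2, 53.7 and 40.2 CPM in Dot1l(+/+) and 76.3 and 58.3 CPM in Dot1l(fl/fl) (0.42 ± 0.16, SE, edgeR adjusted p = 0.397). The neuropeptide gene Sst was at 12.6, 14.6 and 13.1 CPM in Dot1l(+/+) and 22.9 and 15.6 CPM in Dot1l(fl/fl) (0.52 ± 0.23, SE, edgeR adjusted p = 0.477). Sst was also the sole gene past an unadjusted p of 0.05 among 10 neuronal genes downstream of Zeb2 in cortex, whose median log2 fold change was -0.13 in Dot1l(fl/fl). In Dot1l(fl/+) none of these genes passed in either direction, with medians of 0.03 for the Zfhx3 list and -0.12 for the Zeb2 list.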

How the data were processed

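RNA-seq libraries of YFP-sorted midbrain DA neurons of mouse embryos at E15.75 were grouped by sample title. The authors deposited raw counts (whole numbers, not normalized) for Ensembl genes, 1 file per library, from reads of a strand-preserving kit mapped to GRCm38.p4. The submitters' processing notes name bcl2fastq 2.17, Trimmomatic 0.30 and DESeq2 1.10.1. The aligner, the counting program and its strand setting were not given in the sources used here. The authors' 3 deposited comparison tables hold DESeq2 means, fold changes and p-values, of which only the pairing of identifiers with symbols was used. Of 47729 genes, 47224 (98.9%) had coordinates, exon length and GC content in the GENCODE M21 annotation of GRCm38.

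Genotypes were compared in edgeR 4.0.16 (R 4.3.3) by its two-sided quasi-likelihood test on the counts, with TMM normalization and filterByExpr, all 3 genotypes in 1 fit without covariates, and Benjamini-Hochberg adjustment over 17988 genes at 0.05. Intervals are 95% intervals of that fit. Log2 CPM used a prior count of 2. Likeness was Pearson's r over the 8 libraries among genes of at least 10 mean CPM. The code was tested on simulated counts. Library totals were 13616922 to 43674673 counts, and replicates differed by a chi-square per degree of freedom of 17.69 to 42.74, beyond counting noise.

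The family was picked from earlier results of these data, and its members and the lists of related genes and markers were chosen with such results known. All 5 members and Dot1l are named, with up to 3 genes per list by the smallest p in Dot1l(fl/fl) against Dot1l(+/+), the 3 genes most like each member, and genes that overlap a member. Alternatives were RLE size factors, no filter on low counts, DESeq2 1.42.0, only the 2 genotypes compared, a replicate block, a per-library offset for length and GC content (splines with 4 degrees of freedom), the block with the offset, the removal of each library and, for levels, the length of the longest transcript. No sequences are shown.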

Additional observations from a re-analysis of the deposited data

How the results depend on the processing

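The number of genes past the edgeR threshold, 0 in all 3 comparisons, depended on the fit. For Dot1l(fl/fl) against the controls it was 106 without the low-count filter, 197 with DESeq2, and 0 to 75 without 1 library, with 75 without Dot1l(+/+) 2, 50 without Dot1l(fl/fl) 2 and 4 without Dot1l(fl/fl) 1. For Dot1l(fl/+) against the controls it was 11 without the filter. Between the 2 floxed genotypes it was 14 without the filter, 1 with DESeq2 and 0 to 7 without 1 library, with 7 without either Dot1l(fl/fl) library. With the replicate number as a replicate block the numbers were 6, 0 and 4 in these 3 comparisons, and with the replicate block and the length and GC offset 16, 0 and 9. Libraries of the same number deviated from their group means with a correlation of -0.031 to 0.045, and other pairs with -0.051 to 0.045 (-0.12 to 0.145 and -0.219 to 0.219 among genes of at least 10 CPM). Deviations of the 2 Dot1l(fl/fl) libraries from their mean mirror each other. Their correlations thus come with opposite signs, and these ranges are partly fixed in advance. The genotypes were litter-matched per the methods, but the labels do not tie the numbers to litters, so that whether the numbers pair the libraries cannot be told. The cause of these shifts was not tested. Zfhx3 in Dot1l(fl/fl) against the controls was at -0.43 with the offset and -0.85 to -0.41 without 1 library, and against Dot1l(fl/+) at -0.528 to -0.093 without 1 library. Between the floxed genotypes the sign turned without Dot1l(fl/fl) 2 for Zfhx4 (-0.33, range over single libraries left out -0.33 to 0.41) and Zfhx2 (-0.077, range -0.077 to 0.195). Against Dot1l(+/+), Zfhx3 and Zeb1 kept a negative value in both comparisons under all 15 alternatives. So did Zeb2 in Dot1l(fl/fl), and Zfhx4 and Zfhx2 in Dot1l(fl/+). In Dot1l(fl/fl) Zfhx4 was negative in 14 and Zfhx2 in 13 of 15, and in Dot1l(fl/+) Zeb2 in 13 of 15. The alternatives refit the same libraries, and the lower value of Zfhx3 chose the family, so that these counts describe the fits only. The Dot1l(fl/fl) group rests on 2 libraries, the shallowest of the 8.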
